A study of Rattus norvegicus with 18 samples.

Results

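The miR-30 family consists of the microRNAs (miRNAs) miR-30a to miR-30e, each of which can be cut from the 5′ arm (5p) or the 3′ arm (3p) of its hairpin precursor. The family was chosen by name, from a list of 10 mature miRNAs of the rat (rno-), because rno-miR-30e-3p and rno-miR-30a-3p had already been seen to be higher in one group and lower in another of these libraries. Of the 10, 8 had a row among the 753 miRNAs of the count table, 4 of them 5p (rno-miR-30a-5p, rno-miR-30c-5p, rno-miR-30d-5p and rno-miR-30e-5p) and 4 of them 3p (rno-miR-30a-3p, rno-miR-30c-2-3p, rno-miR-30d-3p and rno-miR-30e-3p). The prefix is left out from here on. All 8 were among the 373 miRNAs with more than 10 counts in at least 6 of 18 libraries. The 2 arms of miR-30b are not analysed here.

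The libraries were of small RNA from dorsal root ganglia (DRG), where sensory neurons have their cell bodies among glia, at cervical levels 6 to 8 of adult Lister Hooded rats. Naive rats were unoperated. The bPYX+GFP rats had a bilateral pyramidotomy, in which both corticospinal tracts are cut in the brainstem, and injections of AAV1-CMV-EGFP into the forelimb flexor muscles of one side 24 h later. The bPYX+NT3 rats had the same operation and the same route of injection, with AAV1-CMV-NT3, a vector for human prepro-neurotrophin-3. There were 6 rats in each group, and the injured groups were sampled 10 weeks after injury. The CMV promoter is not specific to a cell type, and the ganglia of the treated side of a rat were pooled into 1 library. No group was injured without a vector, so injury and vector cannot be told apart against naive. In bulk ganglia, fewer cells of a type and less RNA per cell cannot be told apart either.

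A miRNA is cut from its hairpin as a duplex of both arms. One strand, the guide, is usually kept in the Argonaute protein and pairs with messenger RNAs through its seed, the bases near its 5′ end, while the other strand, the passenger, is mostly degraded. For miR-30 the 5p strand is regarded as the guide, and its common seed gives the family a largely shared set of targets. The family is abundant in many tissues and is known, among other roles, for repressing the transcription factor Snai1. In sensory ganglia, miR-30b has been described as repressing the sodium channel gene Scn9a.

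The mature sequences below show what the members share and where they differ, 5′ to 3′, from RefSeq (assembly GRCr8), with the seed (bases 2 to 8) in capitals. Of the 8 members 5 had a sequence there, and miR-30d-5p, miR-30d-3p and miR-30e-3p did not. The first 3 are 5p members with the same seed:
miR-30a-5p: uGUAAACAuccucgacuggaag
miR-30e-5p: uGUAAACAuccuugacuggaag
miR-30c-5p: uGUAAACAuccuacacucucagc

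Counted from the 5′ end, miR-30a-5p and miR-30e-5p were the same at 21 of 22 bases and differed by C13U, outside the seed. Between miR-30a-5p and miR-30c-5p 17 of 22 bases were the same, and the differences were C13A, G14C, G18C, G19U and A20C. The 3p members with a sequence, miR-30a-3p and miR-30c-2-3p, had different seeds, as these sequences show, the last of which is the other 3p arm of miR-30c and not a member:
miR-30a-3p: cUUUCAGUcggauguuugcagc
miR-30c-2-3p: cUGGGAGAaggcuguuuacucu
miR-30c-1-3p: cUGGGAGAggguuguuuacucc

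The 2 listed 3p arms of miR-30c had the same seed and differed by A9G, C12U and U22C. Against miR-30a-3p, miR-30c-2-3p had the same base at 12 of 22 positions. Among the miRNAs of the table with a sequence in RefSeq, the only other with the seed of these 5p members was miR-384-5p, which is known from brain:
miR-384-5p: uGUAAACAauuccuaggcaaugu

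The hairpins of the 2 pairs on which the comparison of arms turns are shown with the mature arms that RefSeq holds in capitals, which are both arms of Mir30a and the 5p arm of Mir30e:
Mir30a: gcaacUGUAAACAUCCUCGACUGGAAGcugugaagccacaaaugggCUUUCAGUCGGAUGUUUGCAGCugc
Mir30e: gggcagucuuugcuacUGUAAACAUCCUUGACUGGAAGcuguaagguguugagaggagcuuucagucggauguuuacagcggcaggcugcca

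The 3′ side of the Mir30e hairpin also holds the bases of the miR-30a-3p seed, UUUCAGU, within a longer stretch like miR-30a-3p. RefSeq holds no 3p arm there, so the seed of miR-30e-3p was not compared. In GRCr8 the nearest miRNA gene to Mir30a was Mir30c2, and the nearest to Mir30e was Mir30c1. The mature miR-30c-5p was held by both miR-30c hairpins, and each of the other 4 members with a sequence by 1.

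Counts given to miRNAs ranged from 3.88 to 6.92 M per library (4.70 ± 0.663 M, mean ± SD, n = 18), and the deepest library was bPYX+GFP replicate 3. Levels are given as counts per M after TMM scaling (CPM). Intervals are 95% intervals from the SE, and a miRNA counts as called at p under 0.05 before adjustment, as the study's methods set it. Nothing in the labels says more of the rats than that each gave 1 sample, so p-values measure the spread between these samples. Levels of different miRNAs also depend on how well each sequence is captured by adapter ligation, which was not tested, so the order of members below is an order of counts.

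The family took 4.82 ± 0.421% of all miRNA counts in naive rats (SD, n = 6), 4.40 ± 0.357% in bPYX+GFP rats and 4.39 ± 0.412% in bPYX+NT3 rats, and the groups overlapped. Nearly all of it was 5p, at 4.68%, 4.24% and 4.23%. The 3p members together took 0.140% in naive rats (0.130 to 0.159%), 0.166% in bPYX+GFP rats (0.160 to 0.176%) and 0.153% in bPYX+NT3 rats (0.136 to 0.169%). Every bPYX+GFP library was thus above every naive library in its 3p share, and the bPYX+NT3 libraries overlapped with both. These 3p shares include the 2 members whose values chose the family, so they describe the libraries and were not tested.

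By mean CPM over the 18 libraries, miR-30d-5p (21540 CPM, rank 12 of 373) and miR-30a-5p (20495 CPM, rank 13) came first. Their SDs over libraries, 2412 and 2867 CPM, were larger than the gap between them. Next came miR-30e-5p at 1904 CPM (rank 40), and then 3 of the 3p members. Of these, miR-30a-3p had 650 CPM (rank 79), miR-30c-2-3p had 503 CPM (rank 90) and miR-30e-3p had 358 CPM (rank 105). The lowest members were miR-30d-3p at 17.8 CPM (rank 260) and miR-30c-5p at 13.5 CPM (rank 279). The gap between these last 2 was larger than their SDs of 2.52 and 2.07 CPM, whereas miR-30c-1-3p, at 11.9 CPM, was below miR-30c-5p by less than the SD of the latter. The 3 more abundant 3p members, with SDs of 75.4, 56.7 and 55.8 CPM in the order given, were each apart from the next by more than their SDs. The 5p arm was thus the more counted arm of miR-30a, miR-30d and miR-30e, and miR-30c-2-3p had more counts than miR-30c-5p, whose count is uncertain.

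**Figure D1:**
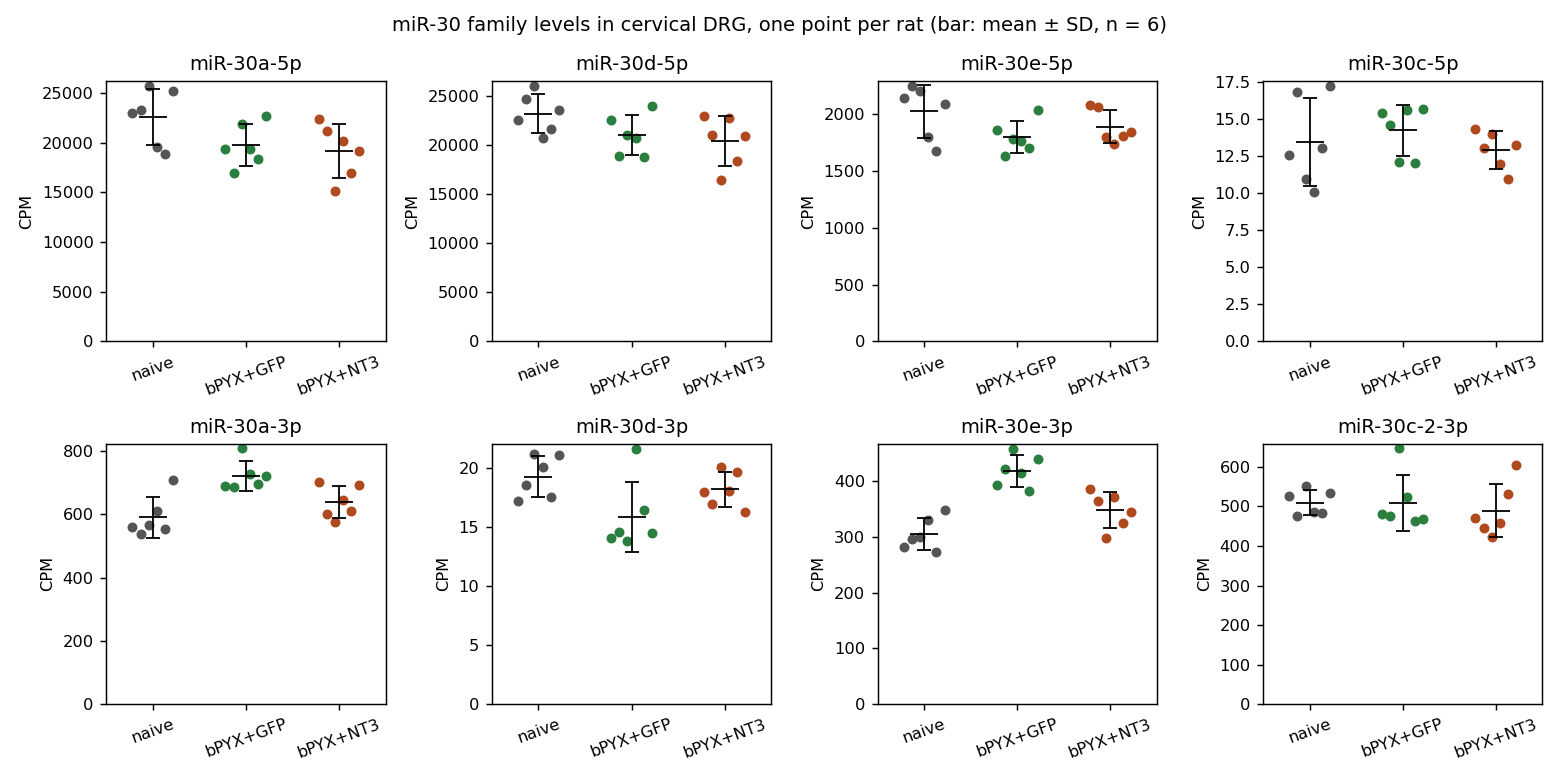
CPM (y axis, from 0, a separate scale in each panel) of the 8 members in each rat, with 5p members in the upper row and 3p members in the lower row; points are rats, and bars are mean ± SD (n = 6). For miR-30e-3p every bPYX+GFP rat, at 383 CPM or more, lies above every naive rat, at 349 CPM or less, while the groups of every 5p member overlap.

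The values that chose the family are those of miR-30e-3p and miR-30a-3p, and they are described here without a test. In naive rats miR-30e-3p had 281, 296, 301, 331, 274 and 349 CPM in replicates 1 to 6. In bPYX+GFP rats it had 394, 422, 459, 416, 383 and 441 CPM, and in bPYX+NT3 rats 387, 365, 299, 372, 326 and 346 CPM. All 6 bPYX+GFP rats were above all naive rats, and 5 of 6 bPYX+NT3 rats were below all bPYX+GFP rats. The log2 fold change was 0.46 ± 0.08 (SE) in bPYX+GFP against naive, -0.25 ± 0.07 in bPYX+NT3 against bPYX+GFP and 0.19 ± 0.09 in bPYX+NT3 against naive. The first and the last share the naive libraries, and the first and the second share the bPYX+GFP libraries. The second and the last share the bPYX+NT3 libraries. Leaving out each library in turn gave 0.43 to 0.50 for the first of these differences.

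The same 3 groups were ordered alike in miR-30a-3p, with smaller log2 differences. In naive rats it had 561, 539, 567, 612, 554 and 710 CPM in replicates 1 to 6. In bPYX+GFP rats it had 690, 686, 810, 727, 696 and 721 CPM, and in bPYX+NT3 rats 704, 600, 578, 644, 612 and 693 CPM. All 6 bPYX+GFP rats were above the naive mean of 591 CPM, but naive replicate 6 was higher than 3 of them. All 6 bPYX+NT3 rats were below the bPYX+GFP mean of 722 CPM. The log2 fold changes were 0.29 ± 0.07 (SE), -0.17 ± 0.06 and 0.11 ± 0.08 in the order of the comparisons above. The highest bPYX+GFP value was that of the deepest library, and without it the first difference was 0.26.

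The other 3p members did not follow this order. For miR-30d-3p the lowest, median and highest levels were 17.2, 19.3 and 21.2 CPM in naive rats. They were 13.8, 14.5 and 21.6 CPM in bPYX+GFP rats and 16.3, 18.0 and 20.1 CPM in bPYX+NT3 rats. In bPYX+GFP, 5 of 6 rats were below every naive rat and replicate 4 was above every naive rat. Its log2 fold change in bPYX+GFP against naive was -0.28 ± 0.12 (SE), opposite in sign to those of miR-30e-3p and miR-30a-3p, with an edgeR adjusted p of 0.225 over 373 miRNAs. These levels rest on 63 to 103 counts per library. Between bPYX+NT3 and bPYX+GFP it was 0.22 ± 0.13 (edgeR adjusted p = 0.646), and without bPYX+GFP replicate 4 these differences were -0.39 and 0.31.

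The level of miR-30c-2-3p differed least of all members between naive and bPYX+GFP rats. Its lowest, median and highest levels were 476, 507 and 552 CPM in naive rats, 464, 478 and 648 CPM in bPYX+GFP rats, and 422, 465 and 604 CPM in bPYX+NT3 rats. The groups overlapped throughout. The log2 fold change in bPYX+GFP against naive was 0.00013, with an interval of -0.19 to 0.19 (edgeR adjusted p = 0.999), and its sign changed with other settings. It was -0.05 in bPYX+NT3 against bPYX+GFP (interval -0.26 to 0.16, edgeR adjusted p = 0.878).

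The 2 abundant 5p members had nearly equal levels, and their groups overlapped. For miR-30a-5p the lowest, median and highest levels were 18856, 23134 and 25667 CPM in naive rats, 16965, 19344 and 22649 CPM in bPYX+GFP rats, and 15133, 19667 and 22331 CPM in bPYX+NT3 rats. For miR-30d-5p they were 20774, 23048 and 26050 CPM in naive rats, 18823, 20890 and 24002 CPM in bPYX+GFP rats, and 16407, 20974 and 22965 CPM in bPYX+NT3 rats. In both, the medians of the injured groups were below the naive median. The log2 fold change of miR-30a-5p in bPYX+GFP against naive was -0.19 ± 0.09 (SE, interval -0.40 to 0.01, edgeR adjusted p = 0.244), and that of miR-30d-5p was -0.14 ± 0.08 (interval -0.32 to 0.03, edgeR adjusted p = 0.314).

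All 6 bPYX+NT3 rats were below the naive mean of both miR-30a-5p and miR-30d-5p. The log2 fold changes against naive were -0.24 ± 0.11 (SE, edgeR adjusted p = 0.349) and -0.19 ± 0.09 (edgeR adjusted p = 0.353). Between the injured groups both members had a log2 difference of -0.03, with intervals of -0.23 to 0.16 for miR-30a-5p and -0.22 to 0.15 for miR-30d-5p, and an edgeR adjusted p of 0.912 for each.

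The third 5p member by level, miR-30e-5p, comes from the same hairpin as miR-30e-3p. Its lowest, median and highest levels were 1673, 2118 and 2244 CPM in naive rats, 1630, 1775 and 2039 CPM in bPYX+GFP rats, and 1737, 1829 and 2079 CPM in bPYX+NT3 rats. The groups overlapped, and the naive rats spread most widely. The log2 fold change in bPYX+GFP against naive was -0.17 ± 0.08 (SE, interval -0.35 to 0.01, edgeR adjusted p = 0.237), opposite in sign to that of the 3p arm. In bPYX+NT3 against bPYX+GFP it was 0.08 ± 0.07 (edgeR adjusted p = 0.734), and against naive -0.10 ± 0.09 (edgeR adjusted p = 0.650). Its count was 8.99 ± 0.495% of that of miR-30a-5p in naive rats (SD, n = 6), 9.13 ± 0.542% in bPYX+GFP rats and 9.99 ± 1.16% in bPYX+NT3 rats.

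For miR-30c-5p the lowest, median and highest levels were 10.0, 12.8 and 17.2 CPM in naive rats, 12.0, 15.0 and 15.7 CPM in bPYX+GFP rats, and 10.9, 13.2 and 14.3 CPM in bPYX+NT3 rats. These rest on 47 to 83 counts per library, and the intervals are the widest of the 5p members. The log2 fold change in bPYX+GFP against naive was 0.08 (interval -0.24 to 0.41, edgeR adjusted p = 0.833), and in bPYX+NT3 against bPYX+GFP it was -0.12 (interval -0.40 to 0.15, edgeR adjusted p = 0.781). HTSeq-count leaves out reads of low alignment quality, as reads that fit several places equally well have, and such reads were 28.0 to 35.1% of all reads. In the table, the 36 miRNAs whose sequence was held by 2 or more hairpins had a median mean count of 1.53 per library, against 12.4 for the 652 held by 1 hairpin, but the highest mean count of the former was 38200. The part of this in the low count of miR-30c-5p was not tested, so its level is uncertain.

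**Figure D2:**
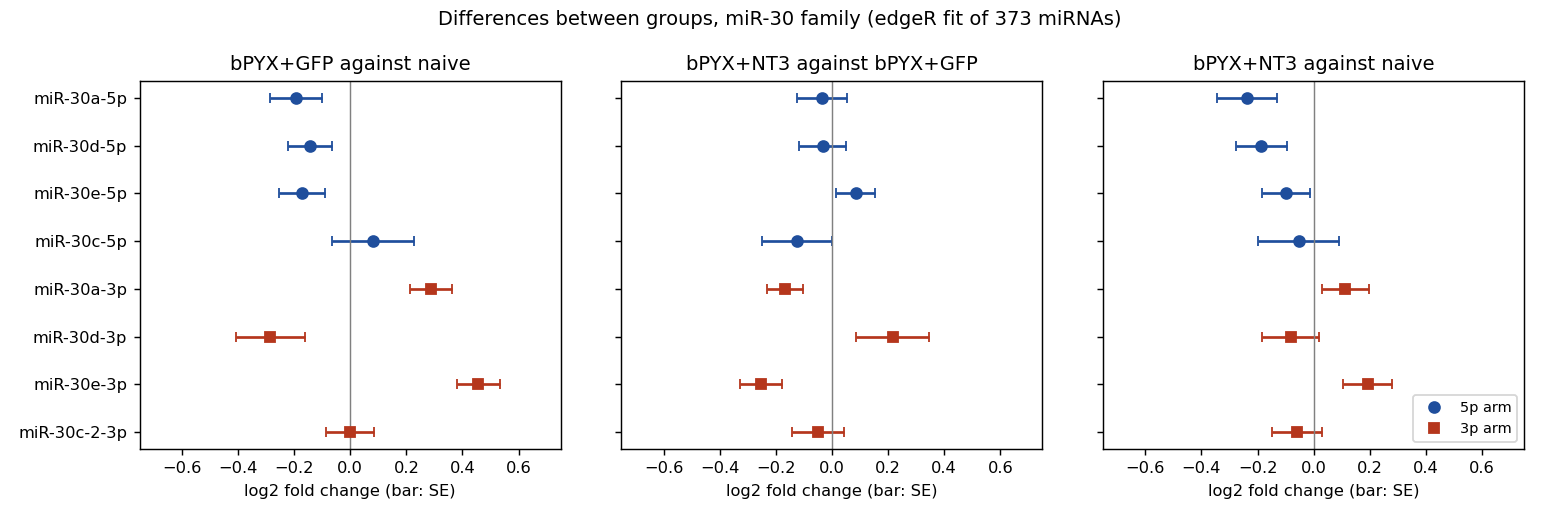
Log2 fold change of each member in each comparison (x axis; bars are SE, from the edgeR fits of 373 miRNAs with 6 rats a group), with 5p members as circles and 3p members as squares. Against naive, miR-30e-3p and miR-30a-3p lie right of 0 in bPYX+GFP, at 0.46 and 0.29, while miR-30a-5p, miR-30d-5p, miR-30e-5p and miR-30d-3p lie left of it.

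In bPYX+GFP against naive 3 of 8 members were called, miR-30e-3p and miR-30a-3p as higher and miR-30d-3p as lower, beside 21.2% of all tested miRNAs (79 of 373, with 10.7% higher and 10.5% lower). Of all tested miRNAs 2.41% (9) had an adjusted p under 0.05 in edgeR. With DESeq2 there were 23, and leaving out 1 library gave 3 (naive replicate 4 or bPYX+GFP replicate 1) to 20 (naive replicate 2). The family was chosen on this contrast, so nothing is read from the count. Leaving out naive replicate 4, naive replicate 5 or bPYX+GFP replicate 6 made it 5, with 3, 2 and 3 5p members called as lower. The median log2 fold change was -0.16 over the 5p members, 0.14 over the 3p members and 0.0036 over all tested miRNAs. In the main fit none of the 4 5p members was called, and the 3p members called went in both directions. The filter of more than 100 counts called miR-30a-5p and miR-30e-5p as lower. The fit of all 18 libraries called miR-30e-5p as lower, and the replicate block called miR-30a-5p as lower. The call of miR-30d-3p was lost with library size only, with the likelihood ratio test and with DESeq2. It was kept on leaving out replicate 1, 2 or 5 of the naive group, or replicate 4 or 5 of bPYX+GFP. Leaving out any other library of this comparison lost it. Groups that did not overlap were found for 1 member, miR-30e-3p, and for 4.02% of all tested miRNAs.

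In bPYX+NT3 against bPYX+GFP 2 of 8 members were called, both lower, beside 8.58% of all tested miRNAs (5.09% higher and 3.49% lower), and these were again miR-30e-3p and miR-30a-3p. Their values in this contrast also chose the family, so nothing is read from this count either. No tested miRNA had an adjusted p under 0.05 in edgeR in this comparison, with 32 under 0.05 unadjusted and 0 under 0.05 adjusted in DESeq2. The 32 became 54 on leaving out bPYX+NT3 replicate 4, and 54 with no filter on low counts. The medians were -0.03 over the 5p members, -0.11 over the 3p members and -0.00042 over all tested miRNAs.

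In bPYX+NT3 against naive 2 of 8 members were called, miR-30e-3p as higher and miR-30a-5p as lower, beside 13.7% of all tested miRNAs (7.24% higher and 6.43% lower). The values of miR-30e-3p in both of these groups had a part in the choice of the family, so nothing is read from its call or from this count. No member had groups that did not overlap, beside 1.34% of all tested miRNAs, and no tested miRNA had an adjusted p under 0.05 in edgeR's quasi-likelihood test on the 12 libraries, with 51 under 0.05 unadjusted, or 32 on leaving out bPYX+NT3 replicate 3. The number under 0.05 adjusted was 1 with DESeq2, with edgeR's likelihood ratio test and with the fit of all 18 libraries. Leaving out bPYX+NT3 replicate 1 gave 1, and leaving out replicate 4 of that group gave 4. Leaving out naive replicate 1, 2 or 3 or bPYX+NT3 replicate 6 left 0 members called, and leaving out bPYX+NT3 replicate 3 or 5 left 1. All 4 5p members had a log2 fold change below 0, from -0.24 to -0.05, with a median of -0.14 against -0.01 over all tested miRNAs. Any 2 of the comparisons share the naive, the bPYX+GFP or the bPYX+NT3 libraries, so a miRNA that is high or low in a shared group moves in both.

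The arms of a hairpin were then compared within each library, as 5p reads per 3p read, a measure that does not depend on scaling between libraries. For miR-30e there were 7.63, 7.57, 7.33, 5.43, 6.11 and 5.99 5p reads per 3p read in naive replicates 1 to 6. In bPYX+GFP rats there were 4.72, 3.86, 3.89, 4.26, 4.45 and 4.62, and in bPYX+NT3 rats 5.38, 5.65, 6.03, 4.66, 5.56 and 5.34. Every bPYX+GFP rat was below every naive rat, and the bPYX+NT3 rats lay between the other groups and overlapped with both. The log2 difference of the ratio was -0.63 ± 0.12 (SE) in bPYX+GFP against naive, 0.34 ± 0.11 in bPYX+NT3 against bPYX+GFP and -0.29 ± 0.12 in bPYX+NT3 against naive. Expressed as a share, the 3p arm was 13.2% of both arms in naive rats, 18.9% in bPYX+GFP rats and 15.6% with NT3.

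For miR-30a there were 41.0, 43.1, 45.3, 31.9, 34.0 and 35.4 5p reads per 3p read in naive replicates 1 to 6. In bPYX+GFP rats there were 28.0, 24.7, 27.0, 26.6, 26.4 and 31.4, and in bPYX+NT3 rats 31.7, 35.3, 26.2, 31.3, 27.6 and 27.7. Every bPYX+GFP rat was below every naive rat here too, by a narrow gap between 31.4 and 31.9. The log2 differences were -0.48 ± 0.11 (SE), 0.13 ± 0.12 and -0.36 ± 0.13 in the same order of comparisons. The 3p share of both arms was 2.57%, 3.54% and 3.26%. These ratios contain the 3p values that chose the family, so for miR-30e and miR-30a they are descriptions. In naive rats, replicates 1 to 3 had higher ratios than replicates 4 to 6 in both pairs.

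**Figure D3:**
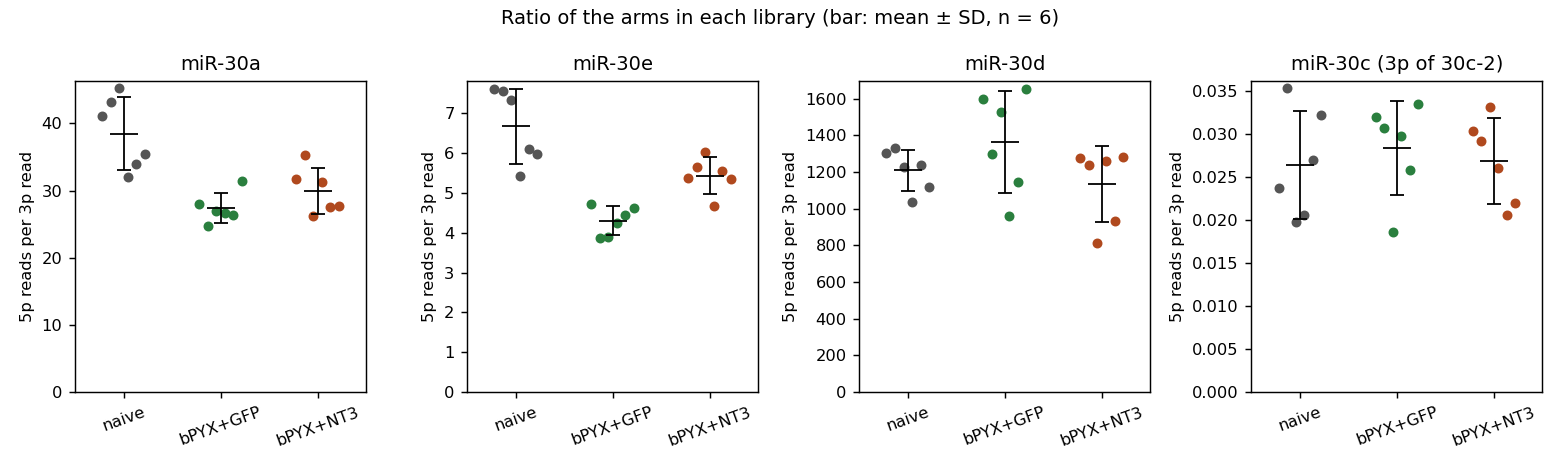
5p reads per 3p read (y axis, from 0, a separate scale in each panel) in each rat for miR-30a, miR-30e, miR-30d and miR-30c, the last with the 3p arm of miR-30c-2; points are rats, and bars are mean ± SD (n = 6). In the miR-30e panel the bPYX+GFP rats, at 3.86 to 4.72, lie below the naive rats, at 5.43 to 7.63, whereas the groups of miR-30d and miR-30c overlap.

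The strands of miR-30d were the most unequal. The lowest, median and highest ratios were 1035, 1233 and 1328 5p reads per 3p read in naive rats, 958, 1410 and 1654 in bPYX+GFP rats, and 815, 1248 and 1282 in bPYX+NT3 rats. The groups overlapped. The log2 difference in bPYX+GFP against naive was 0.15 ± 0.14 (SE, interval -0.17 to 0.47, limma adjusted p = 0.546 over 134 pairs of arms), and in bPYX+NT3 against bPYX+GFP it was -0.26 ± 0.17 (interval -0.64 to 0.12, limma adjusted p = 0.659).

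For miR-30c the 3p arm of miR-30c-2 was 97.4% of both arms in naive rats, 97.2% in bPYX+GFP rats and 97.4% with NT3. The log2 difference of the ratio in bPYX+GFP against naive was 0.11 ± 0.18 (SE, interval -0.29 to 0.51, limma adjusted p = 0.756), and in bPYX+NT3 against bPYX+GFP it was -0.07 ± 0.17 (interval -0.45 to 0.30, limma adjusted p = 0.878). Against miR-30c-1-3p in place of miR-30c-2-3p, there were 1.20, 1.24 and 1.05 reads of miR-30c-5p per 3p read in the 3 groups. The reads of miR-30c-5p belong to both hairpins and its count is uncertain, so neither ratio is that of 1 hairpin.

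Among all 134 pairs of arms, 18.7% had an arm ratio called in bPYX+GFP against naive, 5.22% had an adjusted p under 0.05 in limma, and 4.48% had groups that did not overlap. In the family 2 of 4 pairs were called, those of miR-30e and miR-30a that the choice of the family fixes. The median log2 difference over all pairs was -0.05, with quartiles of -0.25 and 0.12. Between the injured groups 1 of 4 was called, miR-30e, beside 11.2% of all pairs, and 2 without bPYX+GFP replicate 4. Against naive, bPYX+NT3 had 2 of 4 called, miR-30e and miR-30a, beside 14.9% of all pairs, and leaving out naive replicate 1, 2 or 3 or bPYX+NT3 replicate 1, 4 or 6 made it 1. All of these calls contain the 3p values that chose the family, except the call added without bPYX+GFP replicate 4, and nothing is read from the counts.

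**Figure D4:**
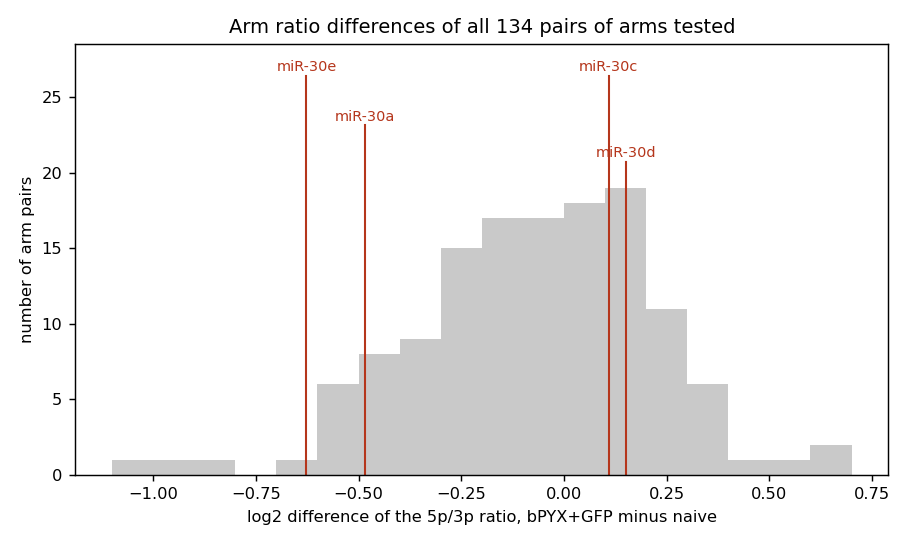
Number of pairs of arms (y axis) by the log2 difference of their 5p-to-3p ratio in bPYX+GFP minus naive (x axis, bins of 0.1) over 134 pairs, in grey, with the 4 pairs of the family as lines. The pairs miR-30e and miR-30a lie at -0.63 and -0.48, left of the median of -0.05, and miR-30c and miR-30d at 0.11 and 0.15.

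The miRNAs found to share a seed with members were looked at for their own values. The level of miR-384-5p, at 518 CPM over all libraries (rank 89), was close to that of miR-30c-2-3p. Its lowest, median and highest levels were 367, 455 and 580 CPM in naive rats, 437, 455 and 590 CPM in bPYX+GFP rats, and 521, 549 and 747 CPM in bPYX+NT3 rats. All 6 bPYX+NT3 rats were above the mean of each other group, but the groups overlapped. The log2 fold change was 0.04 ± 0.11 (SE, edgeR adjusted p = 0.912) in bPYX+GFP against naive, 0.34 ± 0.13 (edgeR adjusted p = 0.354) in bPYX+NT3 against bPYX+GFP and 0.37 ± 0.13 (edgeR adjusted p = 0.219) in bPYX+NT3 against naive. Its sign in the first comparison changed when single libraries were left out. The other, miR-30c-1-3p, had mean levels of 11.7 CPM in naive rats, 11.6 CPM in bPYX+GFP rats and 12.4 CPM in bPYX+NT3 rats, with an edgeR adjusted p of 0.793 or more in all 3 comparisons.

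As a description, Spearman's rho of CPM was 0.87 between miR-30a-5p and miR-30d-5p, 0.74 between miR-30a-5p and miR-30e-5p, and 0.86 between miR-30a-3p and miR-30e-3p. After subtracting group means these were 0.84, 0.80 and 0.76. Between the arms of 1 hairpin rho was -0.31 for miR-30e, 0.0052 for miR-30a, 0.02 for miR-30d and -0.15 for miR-30c, and after subtracting group means 0.26, 0.49, -0.20 and -0.22. Values from 1 library share its depth and scaling, and the least abundant members carry counting error.

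Outside the family, the tested miRNAs with levels most like those of miR-30d-5p over 18 libraries, by Spearman's rho, were miR-218a-5p (0.91), miR-455-5p (0.76) and miR-320-3p (0.75). For miR-30a-3p they were let-7d-3p (0.77), miR-383-5p (0.74) and miR-125a-5p (0.73). For miR-30e-3p they were miR-379-3p (0.78), let-7d-3p (0.78) and miR-148a-3p (0.74). The miRNA let-7d-3p was among the 3 nearest of both 3p members, whose own levels had a rho of 0.86, so their lists are not independent. Group means were not subtracted here. For these 3p members the correlations thus include the group differences that chose the family, and nothing is read from them.

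Lists of miRNAs known for cell types that the ganglia could hold had 15 tested members. The summed level of the sensory neuron list (miR-182, miR-96-5p and miR-183-5p) was 23129 to 28880 per M in naive rats, 26505 to 33745 in bPYX+GFP rats and 28369 to 34494 in bPYX+NT3 rats. Of its 2 tested members, miR-182 was called as higher in both injured groups, with log2 fold changes of 0.20 and 0.19 (edgeR adjusted p = 0.173 and 0.349), whereas miR-96-5p was at 0.07 and -0.04 (edgeR adjusted p = 0.710 and 0.886). Of all tested miRNAs, 10.7% and 7.24% were called as higher in these comparisons, and 10.5% as lower in the first. Of the smooth muscle list, which spanned 40772 to 67420, 46592 to 54104 and 41849 to 65149 per M, miR-145-5p was called as lower in bPYX+GFP than in naive rats, at -0.50 on the log2 scale (with an edgeR adjusted p of 0.0742). It was called as higher in bPYX+NT3 than in bPYX+GFP rats, by 0.40 on this scale (edgeR adjusted p = 0.442). In that comparison 5.09% of all tested miRNAs were called as higher. The other member, miR-143-3p, was at 0.0096 and -0.0017 in these comparisons (edgeR adjusted p = 0.983 and 0.994). Of the fibroblast list (1485 to 2363, 1510 to 1862 and 1582 to 1954 per M), 1 of 2 was called as lower in bPYX+GFP than in naive rats, miR-199a-5p, at -0.21 on the log2 scale (edgeR adjusted p = 0.232), where 10.5% of all tested miRNAs were called as lower. Its other member, miR-214-3p, was at -0.04 in that comparison (edgeR adjusted p = 0.916). None of the tested members was called in these comparisons in the lists for skeletal muscle (92.2 to 176, 68.0 to 305 and 76.8 to 280 per M), red blood cells (119 to 515, 178 to 680 and 264 to 1117), leukocytes (777 to 2255, 1141 to 2321 and 949 to 1786) and endothelium (21461 to 28511, 21039 to 26391 and 20982 to 26444). The list for oligodendrocytes and Schwann glia (miR-338-3p and miR-219a-5p) was at most 1.39 per M with none tested. These markers thus had few counts in a tissue that contains Schwann glia. Whether reads of theirs were left out at alignment or counting was not tested. The part of these lists in the levels of the miR-30 members was not tested.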

How the data were processed

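The deposited values are counts of reads per mature miRNA, with no normalization. Per the labels and methods, the authors made small RNA libraries with a NEBNext kit, sequenced single reads of 50 bases (bcl2fastq 1.8.4), trimmed adapters, aligned to Rnor_5.0 with Bowtie2 and counted with HTSeq-count. The versions of the last 2 and the miRNA annotation are not given in the sources used here, nor are molecular identifiers. The 5 rows of reads given to no miRNA entered neither library sizes nor tests. Reads given to a miRNA were 34.9% of all entries on average, reads of low alignment quality 31.4%, unaligned reads 27.2%, ambiguous reads 3.26% and reads outside miRNAs 3.20%. Within each group no library was a copy of another (lowest chi-square between 2 libraries of a group, divided by its degrees of freedom, 39.6). Libraries of different groups were not compared in this way.

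Each comparison was fitted on its 12 libraries with edgeR 4.0.16 in R 4.3.3 (TMM scaling, quasi-likelihood F test). Benjamini-Hochberg adjustment was over the 373 miRNAs with more than 10 counts in at least 6 of 18 libraries. Arm ratios, log2 of 5p over 3p counts with 0.5 added to each, were fitted with limma 3.58.1 and adjusted over 134 pairs of arms in which both pass that filter. Intervals use t with 10 degrees of freedom. Both were also run on simulated counts, with changes larger than those of the members' levels here, and nothing above rests on that run. The header of the deposited counts gives naive replicate 1 the rat number of a sample that the study describes as an outlier and as excluded from its analysis. The study's list of small RNAs normalized with NT3 gives miR-30d-3p log2 fold changes close to those found here without bPYX+GFP replicate 4. Those were -0.39 in bPYX+GFP against naive and 0.31 in bPYX+NT3 against bPYX+GFP. Without naive replicate 1 the former was -0.31. That list requires p under 0.05 in both comparisons, whereas the main fit here did not call miR-30d-3p in bPYX+NT3 against bPYX+GFP. For miR-30e-3p the values in that list were close to those of the main fit. Which library each published list left out was not settled here, and all 18 were kept in the main fits. Alternatives were median-of-ratios scaling, library size only, the Wald test of DESeq2 1.42.0, the edgeR likelihood ratio test, a fit of all 18 libraries, a low-count filter raised to more than 100 counts or dropped, the replicate number as a block, a pseudocount of 5 for arm ratios, and leaving out each library in turn.

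The members and lists were chosen with earlier results of these data known. Named miRNAs are all members, miR-30c-1-3p, the 3 most correlated miRNAs of miR-30d-5p, miR-30a-3p and miR-30e-3p, and the marker lists. Those found to share a seed with a member are also named. Seeds could be compared only for the 5 of 8 members, and the miRNAs of the table, that had a sequence. From the marker lists, members of the sensory neuron, smooth muscle and fibroblast lists were singled out after their values were seen. Sequences are from RefSeq for GRCr8. Its coordinates are left out because the counts were made on another build.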

Additional observations from a re-analysis of the deposited data

Results flagged for a closer look

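In each group of 6 rats the highest and lowest value of 12 measures (the CPM of the 8 members and 4 arm ratios) were compared with the nearest other rat by Dixon's test, which chance alone passes in about 1 in 20 groups, or about 1.8 of the 36 looked at. It marked 3 values, all in bPYX+GFP rats. The level of miR-30a-3p in replicate 3 was 810 CPM, against 727 CPM in the next rat. The level of miR-30c-2-3p in the same rat was 648 CPM, against 523 CPM in the next. That library was also the deepest, at 6.92 M miRNA counts. The level of miR-30d-3p in replicate 4 was 21.6 CPM, against 16.5 CPM in the next.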

How the results depend on the processing

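Across single members and arm pairs, 746 of the alternative values kept their direction and their side of an adjusted p of 0.05. Another 7 passed that threshold and 5 lost it, all of miR-30a-3p or the arm ratios of miR-30a and miR-30e, whose values chose the family. Those lost were the arm ratios in bPYX+GFP against naive without a low-count filter and with the replicate block, and that of miR-30a without bPYX+GFP replicate 2. The sign changed in 25, of miR-30c-5p, miR-30c-2-3p, miR-30c-1-3p, miR-384-5p and the miR-30c arm ratio, all with differences near 0. With library size only, the log2 fold change of miR-30c-1-3p in bPYX+GFP against naive was 0.0057, and in bPYX+NT3 against naive those of miR-30c-5p and miR-30c-2-3p were 0.012 and 0.0047. That of miR-30c-2-3p in bPYX+GFP against naive was -0.00082 with the filter of more than 100 counts and -0.0080 with the replicate block. With single libraries left out, the values in bPYX+GFP against naive were -0.074 to 0.024 for miR-30c-2-3p, -0.087 to 0.030 for miR-30c-1-3p and -0.044 to 0.11 for miR-384-5p. In bPYX+NT3 against bPYX+GFP they were -0.11 to 0.016 for miR-30c-2-3p and -0.19 to 0.00038 for the miR-30c arm ratio, and in bPYX+NT3 against naive -0.13 to 0.047 for miR-30c-5p and -0.041 to 0.13 for that arm ratio. The number of members called with a library left out was 2 to 5 in bPYX+GFP against naive, 2 to 3 in bPYX+NT3 against bPYX+GFP and 0 to 3 in bPYX+NT3 against naive, and the number of arm pairs called was 2 throughout in the first and 1 to 2 in each of the others. In bPYX+GFP against naive the other settings called 2 to 4 members. They changed which 5p members were called and whether miR-30d-3p was called, as given above. Among the other settings, 1 member was called with library size only in both comparisons of bPYX+NT3, and 1 with the likelihood ratio test and 1 with the replicate block in bPYX+NT3 against naive. The cause was not tested. The replicate number moved no other count of members or arm pairs called by over 1.5 times, and same-numbered rats did not deviate together (correlations of -0.38 to 0.37). Over all miRNAs, the count with an adjusted p under 0.05 in bPYX+GFP against naive was 9, 23 with DESeq2, and 3 to 20 with a library left out. The filter of more than 100 counts gave no value for miR-30c-5p, miR-30d-3p and miR-30c-1-3p. These 3 miRNAs, at 35 to 103 counts per library, are where depth limits precision most. Counting error alone is covered by statements on depth, since PCR copies of a molecule are counted as separate reads.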
